A study of Mus musculus with 21 samples.

Results

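Knockdown of Hsp90aa1 together with TGFb1 was compared with the vehicle control in NF1, a line of fibroblasts grown from normal FVB/n mouse mammary glands. The libraries were chosen by their titles, 3 for NF1 with siHsp90aa1 and TGFb1 and 3 for NF1 with control siRNA and vehicle, which made 6 of the 21 RNA-seq libraries of the study. The knockdown group carried a smartpool siRNA against Hsp90aa1 and received TGFb1, and the vehicle group carried control siRNA. NF1 with control siRNA and TGFb1 (3 libraries) served as the second control, so that each gene could be placed against unstimulated cells and against stimulated cells with normal Hsp90aa1. NF1 with siHsp90ab1 and TGFb1 (3 libraries) and the CAF1 line from MMTV-PyMT mammary carcinomas with siHsp90aa1 or control siRNA, both with vehicle (3 libraries each), were used for comparisons that share no library with one of the 2 controls. Every group, the vehicle control included, was transfected with siRNA at a final 100 nM by DharmaFECT 1 at 60% confluence in medium with serum. TGFb1 was given at 5 ng/mL from 5 h after transfection, and RNA was taken at 48 h. NF1 with siHsp90aa1 and vehicle is not among the groups. A difference between the knockdown with TGFb1 and the vehicle control therefore holds the effect of TGFb1, that of the knockdown and any interplay of both, which cannot be told apart in this comparison alone. A single pool of siRNAs and a single line were used, so that effects of the pool on other transcripts and properties of the line cannot be told apart from loss of Hsp90aa1.

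HSP90 is an abundant ATP-driven chaperone that, with co-chaperones such as CDC37, AHA1 and p23, folds and stabilises client proteins, among them kinases, steroid receptors and other signalling proteins. Hsp90aa1 encodes the stress-inducible and Hsp90ab1 the constitutive cytosolic form, while Hsp90b1 and Trap1 encode the forms of the endoplasmic reticulum and of mitochondria. TGFb1 binds a receptor complex of a type II and a type I kinase, acts through SMAD transcription factors, and drives fibroblasts towards myofibroblasts, which contract and lay down collagen-rich matrix in wounds, fibrosis and tumour stroma.

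Total counts per library were 36159209 to 51847751 with siHsp90aa1 plus TGFb1, 37402910 to 53887365 with TGFb1 alone and 41467680 to 59358721 with vehicle. Levels are given as normalised CPM, counts scaled to a common library size,, and differences as log2 fold changes with their standard error (SE) and an adjusted p from edgeR's quasi-likelihood test. A gene was called at an adjusted p under 0.05 over the 15230 genes tested. The labels do not say whether the 3 libraries of a group came from separate cultures, and each p-value therefore reflects how far these libraries differ, which may be technical. All 12 listed fibroblast markers could be tested, and their summed level was 21760 to 29190 CPM with siHsp90aa1 plus TGFb1, 22260 to 28780 CPM with TGFb1 alone and 10550 to 13260 CPM with vehicle. Col1a1, Col1a2 and Fn1 carried most of this level, whereas Thy1 averaged 0.0983 CPM with siHsp90aa1 plus TGFb1 and 0.285 CPM with vehicle, and Lum was at 0 in the knockdown libraries. Of the lists of other cell types, epithelial markers summed to 0.664 to 1.22 CPM with siHsp90aa1 plus TGFb1 and 0.420 to 0.606 CPM with vehicle, and immune markers to 5.98 to 7.16 CPM and 5.08 to 5.91 CPM in these groups. Endothelial markers summed to 145 to 165 CPM with siHsp90aa1 plus TGFb1 and to 93.1 to 98.4 CPM with vehicle, nearly all of it from Eng, and Tie1 and Emcn were at 0 in all 9 libraries. Pericyte markers, mostly Pdgfrb, summed to 320 to 366 CPM with siHsp90aa1 plus TGFb1 and to 201 to 262 CPM with vehicle, with Kcnj8 at 0, and glial markers reached at most 1.96 CPM in a knockdown library, with Sox10 at 0. Adipocyte markers were at 0 in every knockdown library, with Plin1 and Cfd at 0 in all 9. Against vehicle, Krt14 (epithelial), Tek and Eng (endothelial) and Mcam and Pdgfrb (pericyte) were higher and Cd68 (immune) was lower. The part of these cells in the results was not tested. In bulk RNA, fewer cells of a kind and less RNA per cell cannot be told apart.

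The targeted gene was low in each knockdown library. Hsp90aa1 (ENSMUSG00000021270; minus strand of GRCm38 chromosome 12, 110690605 to 110702728) had 40.2, 65.5 and 120.4 CPM with siHsp90aa1 plus TGFb1, 671, 606 and 543 CPM with TGFb1 alone and 853, 659.6 and 604 CPM with vehicle. The 3 knockdown libraries lay far under both controls, and replicate 3 kept the most Hsp90aa1. The mean was 10.7% of vehicle and 12.4% of TGFb1 alone, with a log2 fold change of -3.23 ± 0.33 against vehicle (SE, adjusted p = 1.31e-06) and of -3.01 ± 0.32 against TGFb1 alone (adjusted p = 7.78e-06).

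The other HSP90 genes gave no call against vehicle. On the per-length scale Hsp90ab1 was the more abundant cytosolic form, with a mean of 3091 TPM against 571 TPM for Hsp90aa1 with vehicle. With siHsp90aa1 plus TGFb1, where the siRNA had lowered Hsp90aa1, the means were 2475 and 57.0 TPM. Hsp90ab1 stood at 3173, 3139 and 2925 CPM with siHsp90aa1 plus TGFb1, against 4513, 3753 and 3419 CPM with vehicle. All 3 knockdown libraries lay under the vehicle libraries, but the difference of -0.34 ± 0.20 did not pass (adjusted p = 0.213). Hsp90aa1 and Hsp90ab1 are paralogs with retained copies elsewhere in the genome, and reads they share were divided by the authors' quantification. Hsp90b1 differed by -0.20 ± 0.14 (adjusted p = 0.298). Trap1 had 112, 115 and 99.4 CPM with siHsp90aa1 plus TGFb1, 79.4, 80.3 and 61.1 CPM with TGFb1 alone and 105, 110.3 and 95.4 CPM with vehicle. With the knockdown Trap1 overlapped the vehicle libraries (0.07 ± 0.10, adjusted p = 0.622) and lay above every library with TGFb1 alone.

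Of the 15 HSP90 and co-chaperone genes, 7 were lower than with vehicle and 0 were higher, against 15.0% and 15.1% of all genes tested, with a median log2 fold change of -0.33 against 0.01 over all genes. Without vehicle replicate 1 only 4 were lower. Both counts include Hsp90aa1, the target of the siRNA, whose fall was set by the design. Of these 7, the 4 genes Hsp90aa1, Fkbp4, Ppid and Ptges3 were also lower than with TGFb1 alone. Among all genes 6.63% lay below both controls. Fkbp4, a prolyl isomerase co-chaperone of steroid receptors, had 233, 258 and 255 CPM with siHsp90aa1 plus TGFb1, 360.0, 366 and 310.1 CPM with TGFb1 alone and 380.2, 380.5 and 329.7 CPM with vehicle. Its 3 knockdown levels were below all 6 control levels (-0.55 ± 0.09 against vehicle, adjusted p = 0.000155). Stip1, which links HSP70 to HSP90, fell against vehicle too (-0.56 ± 0.12, adjusted p = 0.00215), and so did Ahsa1, the ATPase activator AHA1 (-0.33 ± 0.09, adjusted p = 0.0086). Cdc37, the kinase co-chaperone, differed by -0.19 ± 0.09 (adjusted p = 0.133). Of 17 heat shock factor targets 2 were higher and 6 lower (11 lower with the replicate number as a block), with a median of -0.36, beside 15.1% and 15.0% of all genes. TGFb1 alone gave 1 higher and 5 lower. Against TGFb1 alone the knockdown gave 3 higher and 1 lower, beside 14.8% and 13.5% of all genes, with a median of -0.0028. The lower count against vehicle was 3 without vehicle replicate 1 or siHsp90aa1 replicate 2 and 2 without siHsp90aa1 replicate 3, and the higher count was 1 without siHsp90aa1 replicate 1 or vehicle replicate 2. Hspb1, a small heat shock protein, rose against vehicle (0.46 ± 0.09, adjusted p = 0.00113). TGFb1 alone raised Hspb1 too (0.39 ± 0.09, adjusted p = 0.00377), and the knockdown differed from TGFb1 alone by 0.07 ± 0.09 (adjusted p = 0.61). Hspa1b, an inducible HSP70 whose near-identical copy Hspa1a shares its reads, was lower than vehicle (-0.69 ± 0.20, adjusted p = 0.0131). TGFb1 alone lowered Hspa1b more (-1.40 ± 0.20, adjusted p = 4.21e-05), and the knockdown was higher than TGFb1 alone (0.71 ± 0.20, adjusted p = 0.0129). The call of Hspa1b was lost without siHsp90aa1 replicate 3 or vehicle replicate 3 (adjusted p = 0.0618 and 0.0685).

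Against vehicle, 4582 genes differed in the knockdown with TGFb1, 30.1% of those tested, with 2298 higher and 2284 lower. Of these 523 were over 2-fold higher (3.43%) and 341 over 2-fold lower (2.24%). Under the replicate block the counts were 2979 and 2912. The largest rises were genes that TGFb1 also raised. The choice of the largest rises and falls required no overlap between knockdown and vehicle libraries, so that trait is not a separate result. Ctsw, a cathepsin gene known from cytotoxic lymphocytes, had 4.31, 4.88 and 8.10 CPM with siHsp90aa1 plus TGFb1, 11.6, 11.002 and 12.4 CPM with TGFb1 alone and 0, 0.0225 and 0.0572 CPM with vehicle. The vehicle libraries held almost no counts of Ctsw, so no fold is given, and the knockdown libraries lay between the 2 controls. Cilp, a secreted matrix protein of cartilage, had 12.3, 12.2 and 44.5 CPM with siHsp90aa1 plus TGFb1, 26.3, 23.7 and 41.9 CPM with TGFb1 alone and 0.215, 0.0674 and 0.133 CPM with vehicle. Knockdown replicate 3 of Cilp stood well above the other 2, and all 3 were far above vehicle (7.28 ± 0.65, adjusted p = 3.02e-07). Pdgfb, a growth factor for mesenchymal cells, had 10.7, 10.7 and 16.7 CPM with siHsp90aa1 plus TGFb1, 45.9, 41.7 and 32.3 CPM with TGFb1 alone and 0.414, 0.314 and 0.267 CPM with vehicle. Its knockdown levels lay apart from both controls, above vehicle (5.23 ± 0.37) and below TGFb1 alone (-1.66 ± 0.27, adjusted p = 0.000265). The retinaldehyde dehydrogenase gene Aldh1a3 (4.46 ± 0.36), the muscle atrophy ubiquitin ligase gene Fbxo32 (3.99 ± 0.24), the orphan receptor gene Gpr153 (3.66 ± 0.26), Postn (3.64 ± 0.50) and the engulfment receptor gene Megf10 (3.62 ± 0.29) completed the 8 largest rises, all at adjusted p of at most 3.57e-05.

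The largest falls after Hsp90aa1 were likewise genes that TGFb1 lowered. Akr1c18, an enzyme that inactivates progesterone and one of a family of similar genes, had 1.03, 0.334 and 0.272 CPM with siHsp90aa1 plus TGFb1, 0.666, 0.6 and 0.235 CPM with TGFb1 alone and 7.36, 4.51 and 3.17 CPM with vehicle. Both groups with TGFb1 lay under vehicle and overlapped each other (-3.18 ± 0.73 against vehicle, adjusted p = 0.00301). Dio3, the deiodinase that inactivates thyroid hormone, had 4.35, 2.24 and 2.42 CPM with siHsp90aa1 plus TGFb1, against 21.4, 24.5 and 19.0 CPM with vehicle. The groups did not overlap, which the choice required (-2.84 ± 0.36, adjusted p = 1.47e-05). Galnt15, a glycosyltransferase (-2.97 ± 0.56), Gda, guanine deaminase (-2.43 ± 0.24), the alarmin Il33 (-2.38 ± 0.33), AW551984 (-2.36 ± 0.33) and the eosinophil chemokine Ccl11 (-2.35 ± 0.43) were the others, at adjusted p of at most 0.000646.

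Most of the genes that TGFb1 raised, but a smaller part of those that it lowered, were still called against vehicle with siHsp90aa1. TGFb1 alone raised 724 genes over 2-fold against vehicle (4.75% of those tested) and lowered 669 (4.39%). Of the 724 raised genes, 483 (66.7%) were still higher than vehicle with the knockdown, 239 gave no call and 2 were lower. Of the 669 lowered genes, 236 (35.3%) were still lower, 427 gave no call and 6 were higher. Among all genes tested 15.1% were higher and 15.0% lower than vehicle. These calls were of any size, and 367 raised and 148 lowered genes were still called and over 2-fold from vehicle. The median log2 fold change against vehicle was 1.21 with siHsp90aa1 plus TGFb1 and 1.78 with TGFb1 alone over the raised genes, and -0.62 and -1.66 over the lowered genes. Both comparisons share the vehicle libraries that helped to choose these genes, so these are counts of what the comparison holds and not a test.

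A missing call does not place a gene at the vehicle level. Measured by the 95% interval of the log2 fold change, 78 of the raised genes (10.8%) and 195 of the lowered genes (29.2%) lay within 2-fold of vehicle, in either direction. Without siHsp90aa1 replicate 1, 46 raised genes did. Of the 483 raised genes still called, 285 gave no call against TGFb1 alone, 194 had moved back towards vehicle and 4 lay beyond TGFb1 alone. Of the 236 lowered genes still called, 146 gave no call against TGFb1 alone, 89 had moved back and 1 lay beyond. Among genes with no call against vehicle, 97 raised and 305 lowered genes had moved back, and 142 and 122 differed from neither control.

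**Figure D1:**
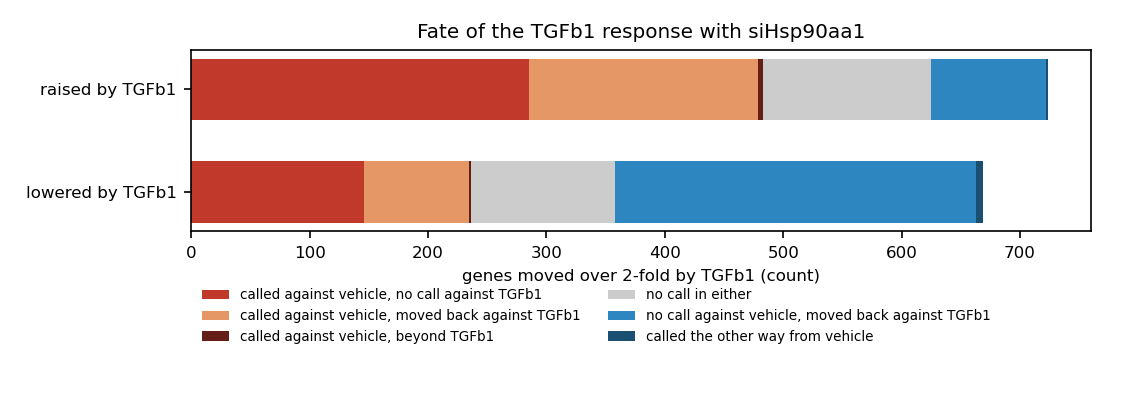
Number of genes that TGFb1 alone moved over 2-fold against vehicle (x axis, count), split by their call in siHsp90aa1 plus TGFb1 against vehicle and against TGFb1 alone. Of 724 raised genes 483 are still called against vehicle (red, orange and dark red), and of 669 lowered genes 236 are, while 305 lowered genes are blue, with no call against vehicle and moved back against TGFb1.

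The other HSP90 knockdown gives a comparison that shares no library with the TGFb1 response. That group was low in both cytosolic HSP90 genes. Its Hsp90ab1 averaged 460 CPM, against 3895 CPM with vehicle. Its Hsp90aa1 stood at 253, 297 and 327 CPM and was also lower than vehicle (-1.27 ± 0.30, adjusted p = 0.00258 in edgeR). Against siHsp90ab1 plus TGFb1, siHsp90aa1 plus TGFb1 was lower for 377 of the 724 raised genes and higher for 6, beside 16.4% lower and 17.7% higher among all genes tested. For the 669 lowered genes it was higher for 401 and lower for 4. With siHsp90ab1 plus TGFb1, 691 raised and 604 lowered genes were still called against vehicle, with medians of 1.90 and -1.79 and backgrounds of 19.7% higher and 21.5% lower. Unlike the comparison between the knockdowns, these calls share the vehicle libraries that helped to choose the genes.

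The genes that TGFb1 moved over 4-fold and that differed least from TGFb1 alone after the knockdown included matrix genes on the raised side and immune signalling genes on the lowered side. Postn (ENSMUSG00000027750, GRCm38 chromosome 3, 54361109 to 54391037, plus strand), the matricellular protein periostin, had 2422, 2865 and 4286 CPM with siHsp90aa1 plus TGFb1, 2631, 2887 and 3672 CPM with TGFb1 alone and 309.8, 192 and 264 CPM with vehicle. Both groups with TGFb1 overlapped and lay far above every vehicle library (3.64 ± 0.50 against vehicle, adjusted p = 3.57e-05). Lox, the enzyme that crosslinks collagen and elastin, had 739.6, 902 and 1044 CPM with siHsp90aa1 plus TGFb1, 974, 946 and 1088 CPM with TGFb1 alone and 227, 243 and 244 CPM with vehicle. The knockdown reached the range of TGFb1 alone in replicate 3 and stood above vehicle in all 3 (1.91 ± 0.14, adjusted p = 6.09e-08). Stab1, a scavenger receptor gene, and Lrrc75b were also kept on the raised side (3.49 ± 0.35 and 2.47 ± 0.27). Il33 had 1.29, 1.09 and 0.652 CPM with siHsp90aa1 plus TGFb1, 0.999, 1.09 and 0.863 CPM with TGFb1 alone and 6.97, 5.57 and 3.43 CPM with vehicle. Il13ra2, a decoy receptor for interleukin 13, had 1.55, 1.06 and 1.28 CPM with siHsp90aa1 plus TGFb1, 2.02, 0.746 and 1.12 CPM with TGFb1 alone and 7.25, 4.45 and 6.48 CPM with vehicle. For both genes the libraries of the 2 groups with TGFb1 overlapped and lay under every vehicle library. Akr1c18 and Rgs2, a regulator of G protein signalling (-1.53 ± 0.31, adjusted p = 0.00118), were kept on the lowered side as well.

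Genes within 2-fold of vehicle after the knockdown included surface markers of resting fibroblasts. Ly6a (ENSMUSG00000075602, GRCm38 chromosome 15, 74994877 to 74998031, minus strand), which encodes Sca-1, had 298, 186 and 168 CPM with siHsp90aa1 plus TGFb1, 25.6, 31.4 and 24.2 CPM with TGFb1 alone and 202, 207 and 233 CPM with vehicle. The knockdown libraries overlapped vehicle, with replicate 1 above and replicates 2 and 3 below it, and all 3 were far above TGFb1 alone. The log2 fold change was 0.02 ± 0.18 against vehicle (adjusted p = 0.945) and 3.00 ± 0.20 against TGFb1 alone (adjusted p = 1.02e-07). Ly6c1, of the same gene cluster, had 74.9, 40.2 and 36.9 CPM with siHsp90aa1 plus TGFb1, 5.80, 6.24 and 5.05 CPM with TGFb1 alone and 72.02, 61.5 and 72.7 CPM with vehicle. Its replicate 1 was near vehicle and the other 2 libraries were lower. It differed by -0.44 ± 0.24 from vehicle (adjusted p = 0.188) and passed as lower without siHsp90aa1 replicate 1 (-0.83, adjusted p = 0.0120). Ggt5, a gamma-glutamyl transferase that acts on leukotriene C4, had 7.89, 6.86 and 6.69 CPM with siHsp90aa1 plus TGFb1, 0.2, 0.418 and 0.392 CPM with TGFb1 alone and 5.00, 5.79 and 9.80 CPM with vehicle. The knockdown libraries lay within the vehicle range. Ptpn5, a tyrosine phosphatase, was still lower than vehicle (-0.66 ± 0.16, adjusted p = 0.00461, no longer called at 0.0527 when only the 6 libraries were fitted) but within 2-fold. On the raised side Tubb3, a beta-tubulin, had 24.8, 27.9 and 36.2 CPM with siHsp90aa1 plus TGFb1, 80.3, 78.5 and 85.0 CPM with TGFb1 alone and 20.8, 22.6 and 15.5 CPM with vehicle. Every knockdown library was above vehicle and far under TGFb1 alone (0.59 ± 0.15 against vehicle, adjusted p = 0.00627). The call was lost when only the 6 libraries were fitted (adjusted p = 0.0540) and without siHsp90aa1 replicate 3 (adjusted p = 0.0577). Jup, which encodes plakoglobin (0.57 ± 0.14, adjusted p = 0.0049), was placed like Tubb3, and Tmem151b (0.09 ± 0.38) and Endod1 (0.33 ± 0.25) gave no call against vehicle.

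**Figure D2:**
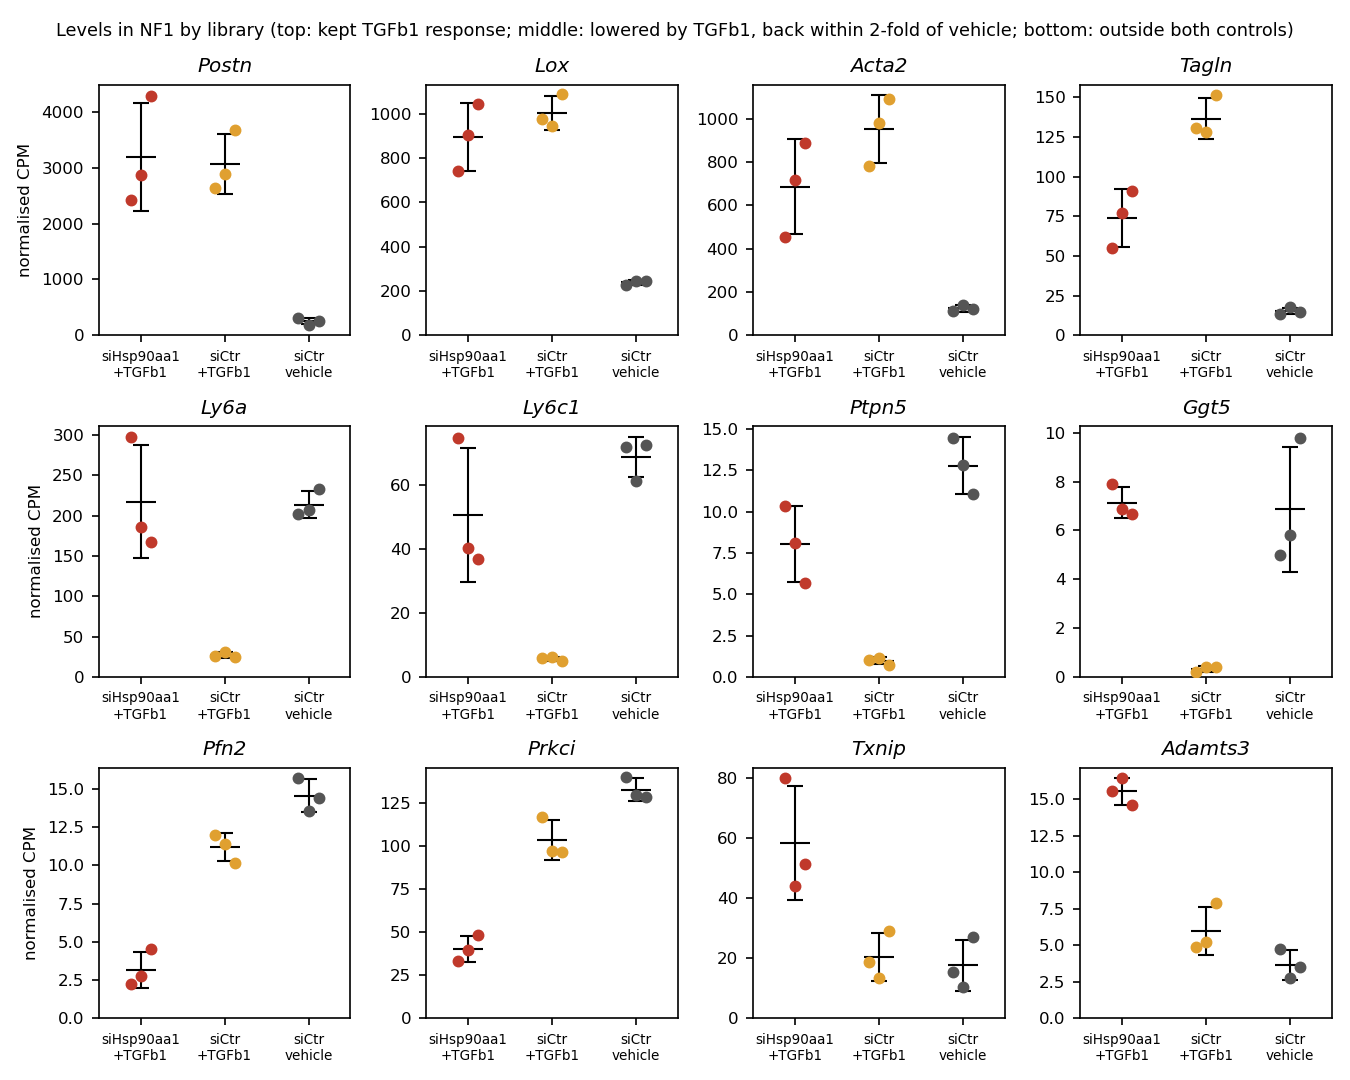
Normalised CPM (y axis, linear from 0) of 12 genes in each NF1 library, for siHsp90aa1 plus TGFb1 (red), TGFb1 alone (orange) and vehicle (grey), with the group mean and SD (n = 3). Postn and Lox overlap between the groups with TGFb1, and Ly6a and Ggt5 overlap between the knockdown and vehicle. Pfn2, Prkci, Txnip and Adamts3 lie outside both controls in every knockdown library, which their choice required.

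Of 23 TGFb signalling targets, 14 were higher than vehicle with the knockdown and 1 was lower, with a median of 0.81, while TGFb1 alone gave 16 higher and 3 lower and a median of 1.15 (background 14.6% and 14.4%). Against TGFb1 alone 4 were higher and 9 lower (background 14.8% and 13.5%). Among the ligands, Tgfb1 itself, a gene of its own induction, had 70.6, 78.1 and 115 CPM with siHsp90aa1 plus TGFb1, 202, 179.6 and 213 CPM with TGFb1 alone and 58.4, 66.4 and 54.4 CPM with vehicle. The knockdown libraries were all above vehicle (0.56 ± 0.17, adjusted p = 0.0168) and all below TGFb1 alone (-1.18 ± 0.17, adjusted p = 8.15e-05). Tgfb3 rose against vehicle (0.99 ± 0.14, adjusted p = 4.27e-05) and differed from TGFb1 alone by 0.03 ± 0.14 (adjusted p = 0.917), and Tgfb2 did not pass (0.38 ± 0.31, adjusted p = 0.39).

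Of the 2 receptor genes, only Tgfbr1 was called against vehicle. Tgfbr1, the type I receptor kinase, had 11.9, 14.6 and 18.8 CPM with siHsp90aa1 plus TGFb1, 36.2, 37.6 and 38.8 CPM with TGFb1 alone and 36.3, 38.5 and 34.3 CPM with vehicle. All 3 knockdown libraries were under all 6 control libraries (-1.27 ± 0.13 against vehicle, adjusted p = 1.02e-06, and -1.32 ± 0.13 against TGFb1 alone, adjusted p = 2.55e-06). TGFb1 alone gave no call for Tgfbr1 (0.05 ± 0.12, adjusted p = 0.824), and in CAF1, with no library in common, it was lower with siHsp90aa1 too (-1.02 ± 0.12, adjusted p = 2.68e-05). Tgfbr2, the type II receptor, had 144, 137 and 136 CPM with siHsp90aa1 plus TGFb1, 62.2, 70.7 and 75.0 CPM with TGFb1 alone and 89.7, 106 and 132 CPM with vehicle. The knockdown libraries were above every control library, but the difference from vehicle did not pass (0.34 ± 0.14, adjusted p = 0.0762).

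The feedback inhibitors of the pathway given here were above vehicle. Smad7, the inhibitory SMAD, had 37.3, 35.6 and 29.6 CPM with siHsp90aa1 plus TGFb1, 64.3, 62.8 and 54.3 CPM with TGFb1 alone and 15.7, 18.6 and 12.9 CPM with vehicle. The 3 groups did not overlap (1.12 ± 0.22 against vehicle, adjusted p = 0.000793). Pmepa1, which sequesters SMADs (3.46 ± 0.34), and the SMAD repressors Skil (1.79 ± 0.18) and Ski (0.87 ± 0.07) also rose, all at adjusted p of at most 1.76e-06. Ltbp2, a latent TGFb-binding protein of microfibrils, had 261, 285 and 304 CPM with siHsp90aa1 plus TGFb1, 294, 293 and 267 CPM with TGFb1 alone and 99.4, 116 and 90.9 CPM with vehicle. Its levels with and without the knockdown overlapped under TGFb1, above all vehicle libraries (1.47 ± 0.09, adjusted p = 9.29e-09). Snai1, the transcription factor Snail, rose by 1.05 ± 0.09 against vehicle and differed from TGFb1 alone by -0.49 ± 0.09 (adjusted p = 0.000704). Apart from Pdgfb, Ltbp2 and Ski, the pathway genes given here were named after their values had been seen.

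Contractile genes rose in most cases. Of 22, 16 were higher and 1 lower than vehicle (0 lower without siHsp90aa1 replicate 1), beside 15.1% and 15.0% of all genes, with a median of 0.81, and 16 and 1 with TGFb1 alone, with a median of 1.02. Against TGFb1 alone 1 was higher and 5 lower (14.8% and 13.5% of all genes). Acta2, the smooth muscle actin that marks myofibroblasts, had 453, 719 and 887 CPM with siHsp90aa1 plus TGFb1, 784, 978 and 1094 CPM with TGFb1 alone and 110.5, 139.8 and 124 CPM with vehicle. The knockdown libraries stood above vehicle and partly within the range of TGFb1 alone (2.46 ± 0.21 against vehicle, adjusted p = 1.71e-07). Tagln, an actin-binding protein of smooth muscle, had 54.8, 77.0 and 90.9 CPM with siHsp90aa1 plus TGFb1, 130.5, 128 and 151 CPM with TGFb1 alone and 13.5, 17.6 and 14.9 CPM with vehicle. Here the 3 groups did not overlap, with 2.28 ± 0.19 against vehicle (adjusted p = 1.77e-07) and -0.88 ± 0.18 against TGFb1 alone (adjusted p = 0.00174). Cnn1, calponin, rose by 2.20 ± 0.19 (adjusted p = 1.71e-07). Lmod1, a leiomodin that nucleates actin filaments in smooth muscle, was the 1 member above both controls, at low levels of 0.342, 0.593 and 0.571 CPM with siHsp90aa1 plus TGFb1, 0.0888, 0.218 and 0.314 CPM with TGFb1 alone and 0.0331, 0.0449 and 0.114 CPM with vehicle.

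Of 29 collagen and matrix genes 16 were higher and 0 lower than vehicle, beside 15.1% and 15.0% of all genes (3 lower under the replicate block and 1 with only the 12 NF1 libraries), with a median of 0.82, while TGFb1 alone gave 16 higher and 2 lower and a median of 0.80. Against TGFb1 alone 5 were higher and 1 lower, beside 14.8% and 13.5% of all genes. Col1a1, the alpha 1 chain of type I collagen, had 6806, 7239 and 10170.0 CPM with siHsp90aa1 plus TGFb1, 8144, 9117 and 11449 CPM with TGFb1 alone and 2207, 2241 and 2976 CPM with vehicle. Both groups with TGFb1 overlapped, above vehicle (1.71 ± 0.16, adjusted p = 5.98e-07). Col5a2, a chain of fibril-nucleating collagen V (2.09 ± 0.13), and Col12a1, a fibril-associated collagen (1.41 ± 0.14), rose too. Sparc, a collagen-binding matricellular protein, had 2591, 2503 and 3157 CPM with siHsp90aa1 plus TGFb1, 2093, 1959 and 2493 CPM with TGFb1 alone and 1356, 1245 and 1537 CPM with vehicle. It was the 1 matrix gene above both controls (1.00 ± 0.11 against vehicle, adjusted p = 4.66e-06, and 0.33 ± 0.11 against TGFb1 alone, adjusted p = 0.0315).

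Most genes of collagen-processing enzymes rose. Of 18, 14 were higher and 0 lower than vehicle, beside 15.1% and 15.0% of all genes. The median was 0.62 against 0.57 with TGFb1 alone. The prolyl 4-hydroxylase subunit gene P4ha3 (1.94 ± 0.19) and the procollagen C-proteinase gene Bmp1 (1.61 ± 0.17) rose beside Lox. Plod3, Loxl1 and Loxl3 lay above both controls, as did 4.64% of all genes. Loxl3, a lysyl oxidase, had 188, 158 and 155 CPM with siHsp90aa1 plus TGFb1, 96.9, 88.9 and 105 CPM with TGFb1 alone and 70.5, 77.1 and 80.4 CPM with vehicle. The knockdown libraries exceeded every control library (1.13 ± 0.12 against vehicle, adjusted p = 3.80e-06, and 0.78 ± 0.12 against TGFb1 alone, adjusted p = 0.0002). Of 18 tested proteases and inhibitors 10 were higher and 2 lower than vehicle, beside the same shares of all genes, with a median of 0.70. TGFb1 alone gave 11 higher and 3 lower, with a median of 0.67. Against TGFb1 alone 3 were higher and 2 lower, beside 14.8% and 13.5% of all genes. The disintegrin metalloproteinase genes Adam12 (2.18 ± 0.18), Adam19 (2.10 ± 0.21) and Adamts12 (1.93 ± 0.23) led the rises against vehicle. Plat, tissue plasminogen activator, had 197, 163 and 166 CPM with siHsp90aa1 plus TGFb1, 99.0, 96.6 and 119 CPM with TGFb1 alone and 109, 104 and 110.1 CPM with vehicle. It was not called with TGFb1 alone and lay above both controls (0.70 ± 0.11 against vehicle, adjusted p = 0.00012).

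**Figure D3:**
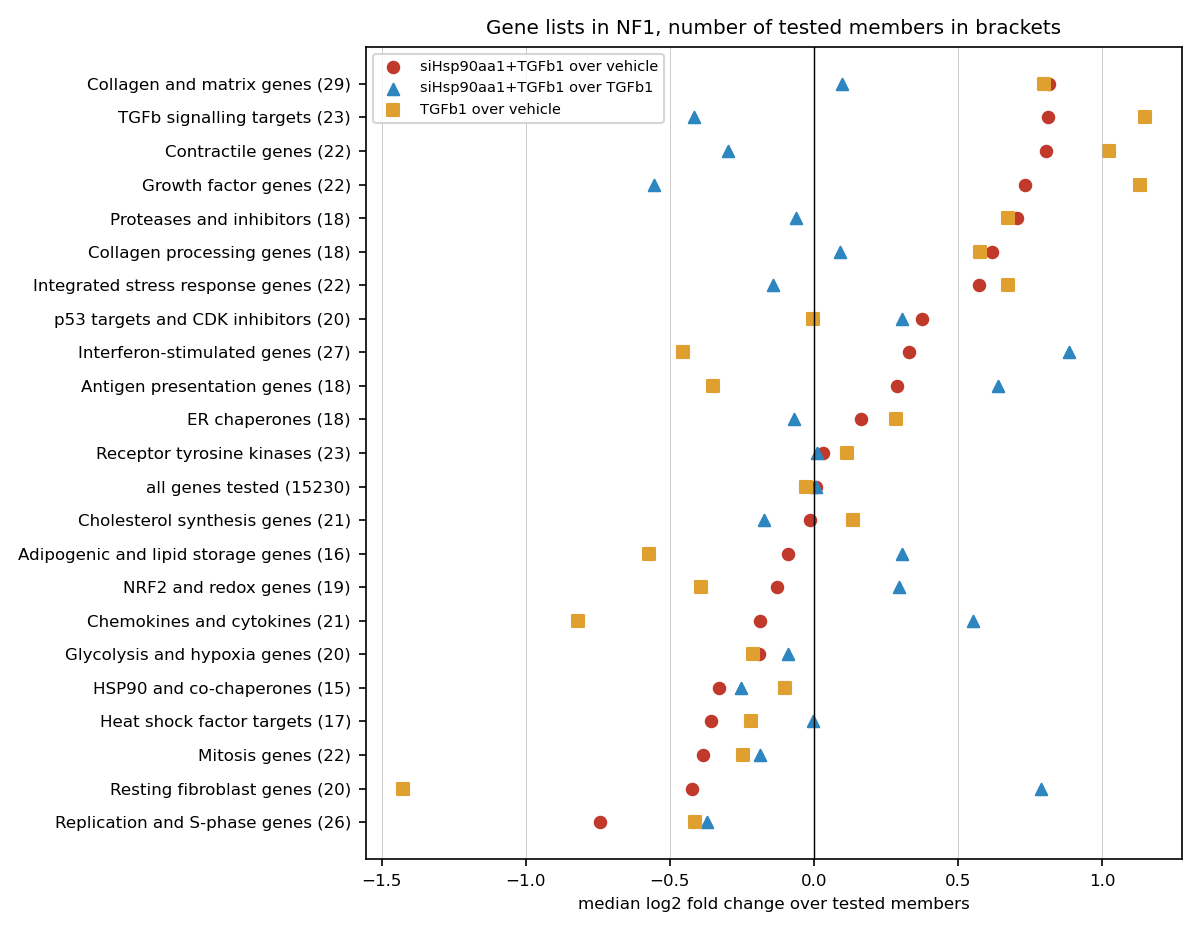
Median log2 fold change (x axis) over the tested members of each gene list, for siHsp90aa1 plus TGFb1 over vehicle (red circles), siHsp90aa1 plus TGFb1 over TGFb1 alone (blue triangles) and TGFb1 alone over vehicle (orange squares). Collagen and matrix genes sit at 0.82 and 0.80 against vehicle in both groups with TGFb1, resting fibroblast genes at -0.42 with the knockdown and -1.43 without it, and replication genes lie lowest with the knockdown at -0.74.

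By their median, genes of resting fibroblasts lay nearer to vehicle than with TGFb1 alone. Of 20 tested members, 2 were higher and 2 lower than vehicle with the knockdown (4 lower under the replicate block or without vehicle replicate 2, and 1 lower without siHsp90aa1 replicate 2 or 3 or vehicle replicate 3), against 1 higher and 9 lower with TGFb1 alone. The medians were -0.42 and -1.43. Among all genes 15.1% were higher and 15.0% lower than vehicle with the knockdown. Set directly against TGFb1 alone, 4 members were higher and 1 lower, beside 14.8% and 13.5% of all genes, with a median of 0.79. Pdgfra, the receptor kinase of fibroblast progenitors and a gene chosen after its values were seen, had 655, 591 and 596 CPM with siHsp90aa1 plus TGFb1, 268, 249 and 273 CPM with TGFb1 alone and 752, 625 and 917 CPM with vehicle. The knockdown libraries were all far above TGFb1 alone (1.22 ± 0.14, adjusted p = 9.77e-06) and 2 of the 3 were under the lowest vehicle library (-0.32 ± 0.13, adjusted p = 0.0817). Has2, a hyaluronan synthase that TGFb1 raised, rose by 0.84 ± 0.20 against vehicle, and the actin-severing gelsolin gene Gsn rose by 0.39 ± 0.09 (adjusted p = 0.00472, and 0.0566 when only the 6 libraries were fitted). Of 16 tested adipogenic genes 2 were higher (1 without siHsp90aa1 replicate 3 and 4 with only the 12 NF1 libraries) and 3 lower (5 under the block), near the 15.1% and 15.0% of all genes, with log2 fold changes of 0.61 ± 0.13 for the lipid droplet gene Plin2 and -1.08 ± 0.24 for the transcription factor gene Cebpd. Fabp4, a fatty acid-binding protein of adipocytes, was under 1 CPM in all 9 libraries.

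In the main fit few interferon-stimulated genes differed from vehicle, where 15.1% of all genes were higher and 15.0% lower. Most were above TGFb1 alone. Of 27, 2 were higher and 0 lower than vehicle with the knockdown (5 higher under the replicate block, and 1 without siHsp90aa1 replicate 1 or vehicle replicate 2), with a median of 0.33, against 0 higher and 8 lower with TGFb1 alone, with a median of -0.45. When only the 12 NF1 libraries were fitted, 11 were higher. Against TGFb1 alone 20 were higher and 0 lower, beside 14.8% and 13.5% of all genes. Zbp1, a sensor of Z-form nucleic acids, had 126, 92.3 and 89.0 CPM with siHsp90aa1 plus TGFb1, 53.3, 49.7 and 37.1 CPM with TGFb1 alone and 67.6, 48.9 and 55.3 CPM with vehicle, and it lay above both controls, with a log2 fold change of 0.84 ± 0.22 against vehicle (adjusted p = 0.00799, and 0.0543 without siHsp90aa1 replicate 1). Gbp2, an interferon-induced GTPase of a gene family, did not pass (0.60 ± 0.25, adjusted p = 0.083) but did under the block (0.62, adjusted p = 0.0306), with only the 12 NF1 libraries (0.62, adjusted p = 0.0282) and without vehicle replicate 1 (0.83, adjusted p = 0.0367).

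Of the 22 lists, the interferon-stimulated genes had the largest median difference between the 2 knockdowns. Against siHsp90ab1 plus TGFb1, 26 of the 27 genes were higher and 0 lower, with a median of 1.96. Among all genes 17.7% were higher and 16.4% lower there. With siHsp90ab1 plus TGFb1, 26 genes were below vehicle, beside 21.5% of all genes, with a median of -1.62. Of 18 antigen presentation genes, 3 were higher and 2 lower than vehicle, near the 15.1% and 15.0% of all genes (5 higher under the block and 8 with only the 12 NF1 libraries), and 15 were higher and 1 lower than with siHsp90ab1 plus TGFb1 (17.7% and 16.4% of all genes). H2-D1, a classical class I heavy chain, had 1203, 955 and 1032 CPM with siHsp90aa1 plus TGFb1, 666, 709 and 718 CPM with TGFb1 alone and 639, 757 and 849 CPM with vehicle. The knockdown libraries exceeded all control libraries (0.51 ± 0.12 against vehicle, adjusted p = 0.00482). H2-T23 and the peptide-loading gene Tapbp were also above both controls (0.66 ± 0.18 and 0.46 ± 0.14 against vehicle), as were 4.64% of all genes. Class I genes are similar in sequence, and the division of their reads is uncertain. Pdia3, the disulfide isomerase of the class I loading complex, went the other way and had 202, 282 and 409 CPM with siHsp90aa1 plus TGFb1, 862, 785 and 820.3 CPM with TGFb1 alone and 767, 608 and 649.5 CPM with vehicle. Its knockdown libraries lay under every control library (-1.18 ± 0.18 against vehicle, adjusted p = 0.000122), and Erap1, the trimming peptidase, was lower than vehicle as well (-0.37 ± 0.08, adjusted p = 0.00215).

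Most cytokine genes gave no call against vehicle. Of 21 tested chemokine and cytokine genes, 2 were higher and 4 lower than vehicle (4 and 8 under the replicate block, and 1 higher without any one of siHsp90aa1 replicate 2 or 3 or vehicle replicate 1 or 2), near the 15.1% and 15.0% of all genes. TGFb1 alone gave 2 higher and 10 lower, and the medians were -0.19 with the knockdown and -0.82 with TGFb1 alone. Cxcl1, a neutrophil chemokine, had 43.1, 30.6 and 34.9 CPM with siHsp90aa1 plus TGFb1, 22.1, 16.2 and 16.5 CPM with TGFb1 alone and 108, 58.8 and 88.4 CPM with vehicle. The 3 groups did not overlap, and the knockdown lay between the controls (-1.23 ± 0.20 against vehicle, adjusted p = 0.000187). Csf3, which encodes G-CSF, was under 0.4 CPM in all 9 libraries and the 1 member below both controls (-2.35 ± 0.57, adjusted p = 0.00435).

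Genes outside both controls had group levels above or below those of both vehicle and TGFb1 alone. They were defined as called in the same direction against vehicle and against TGFb1 alone, 2 comparisons that share the knockdown libraries. Their single libraries could still overlap those of a control. There were 706 such genes above both controls (4.64% of those tested) and 1010 below (6.63%), and 51 (0.335%) and 72 (0.473%) when over 2-fold from each. Under the replicate block 1139 lay above and 1399 below. The counts depended on single libraries, with 389 above and 659 below without siHsp90aa1 replicate 1, 448 above without siHsp90aa1 replicate 2 and 440 above without TGFb1 replicate 1. TGFb1 alone gave no call for 586 of the 706 genes and 893 of the 1010. The median log2 fold change was 0.53 against vehicle and 0.52 against TGFb1 alone for the 706 genes. For the 1010 genes it was -0.50 and -0.48.

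The same siRNA pool was used in CAF1, which shares no library with NF1 here. Of the 706 genes above both controls, 487 (69.0%) were also higher with siHsp90aa1 in CAF1 and 2 were lower, beside 12.5% higher and 12.9% lower among all genes tested, and the median there was 0.45. Of the 1010 below, 755 (74.8%) were also lower and 0 higher, with a median of -0.42. Among genes over 2-fold from each control, 23 of the 51 above (45.1%) and 52 of the 72 below (72.2%) were called the same way in CAF1. CAF1 received no TGFb1 in these groups. Both lines received the same pool, so the comparison does not part loss of Hsp90aa1 from other effects of that pool. The effect of the knockdown itself differed between CAF1 and NF1 with TGFb1, by an interaction contrast, for 832 genes (5.46% of those tested).

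The genes farthest below both controls after Hsp90aa1 were Pfn2, Paip2b, Bmper, Prkci, Ak4, Krt80 and Nudcd2. Their choice required no overlap with the libraries of either control, so that trait is not a separate result. Pfn2 (ENSMUSG00000027805, GRCm38 chromosome 3, 57841895 to 57848079, minus strand), a profilin that binds actin monomers, had 2.25, 2.78 and 4.51 CPM with siHsp90aa1 plus TGFb1, 11.99, 11.4 and 10.2 CPM with TGFb1 alone and 15.7, 13.5 and 14.4 CPM with vehicle. The knockdown libraries lay far under all control libraries (-2.21 ± 0.17 against vehicle, adjusted p = 6.09e-08, and -1.83 ± 0.17 against TGFb1 alone, adjusted p = 1.22e-06). Prkci, the atypical protein kinase C iota of cell polarity, had 33.2, 39.5 and 48.4 CPM with siHsp90aa1 plus TGFb1, 117, 97.2 and 96.7 CPM with TGFb1 alone and 140.2, 129.5 and 128 CPM with vehicle. Its libraries did not overlap those of either control (-1.72 ± 0.12 against vehicle, adjusted p = 4.95e-08). Nudcd2, a NudC-domain gene, had 15.6, 21.1 and 32.6 CPM with siHsp90aa1 plus TGFb1, 62.4, 61.3 and 67.6 CPM with TGFb1 alone and 60.9, 54.8 and 59.6 CPM with vehicle. The log2 fold change against vehicle was -1.54 ± 0.11 for the poly(A)-binding protein regulator gene Paip2b and -1.59 ± 0.16 for the BMP-binding protein gene Bmper. It was -1.95 ± 0.23 for the mitochondrial adenylate kinase gene Ak4, -1.35 ± 0.14 for the keratin gene Krt80 and -1.34 ± 0.17 for Nudcd2. All 7 were lower in CAF1 with siHsp90aa1 as well, with log2 fold changes from -0.62 ± 0.15 for Krt80 to -2.15 ± 0.24 for Ak4.

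The genes farthest above both controls were Dhrs3, Txnip, Plekhg4, Adamts3, Tcta, Tcp11l2, Matn2 and Bbs1. No overlap with the libraries of either control was again a condition of the choice. Txnip, the thioredoxin-binding protein that limits glucose uptake, had 80.0, 44.0 and 51.3 CPM with siHsp90aa1 plus TGFb1, 18.9, 13.3 and 29.1 CPM with TGFb1 alone and 15.6, 10.4 and 27.1 CPM with vehicle. All knockdown libraries exceeded all controls, and replicate 1 was the highest (1.72 ± 0.33 against vehicle, adjusted p = 0.000808). Dhrs3, a retinaldehyde reductase, had 7.54, 5.43 and 4.54 CPM with siHsp90aa1 plus TGFb1, 1.73, 1.64 and 1.23 CPM with TGFb1 alone and 2.797, 1.505 and 0.877 CPM with vehicle. The knockdown libraries lay above both controls, which overlapped each other (1.75 ± 0.36, adjusted p = 0.00141). Adamts3, a procollagen N-proteinase, had 15.6, 16.5 and 14.6 CPM with siHsp90aa1 plus TGFb1, 4.86, 5.24 and 7.90 CPM with TGFb1 alone and 4.72, 2.74 and 3.51 CPM with vehicle, and it rose by 2.08 ± 0.38 against vehicle (adjusted p = 0.000497). The matrilin gene Matn2 rose by 1.91 ± 0.30, the guanine nucleotide exchange factor gene Plekhg4 by 1.42 ± 0.32, Tcta by 1.41 ± 0.22, Tcp11l2 by 1.31 ± 0.40 and the BBSome gene Bbs1 of the cilium by 1.20 ± 0.19. Tcp11l2 lost its call against vehicle without siHsp90aa1 replicate 3 or vehicle replicate 1 or 2 (adjusted p = 0.0687, 0.0733 and 0.0810). In CAF1 the knockdown raised Dhrs3, Adamts3, Tcta, Tcp11l2 and Bbs1, and Txnip (0.59 ± 0.32), Matn2 (0.51 ± 0.27) and Plekhg4 (-0.11 ± 0.32) did not pass.

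**Figure D4:**
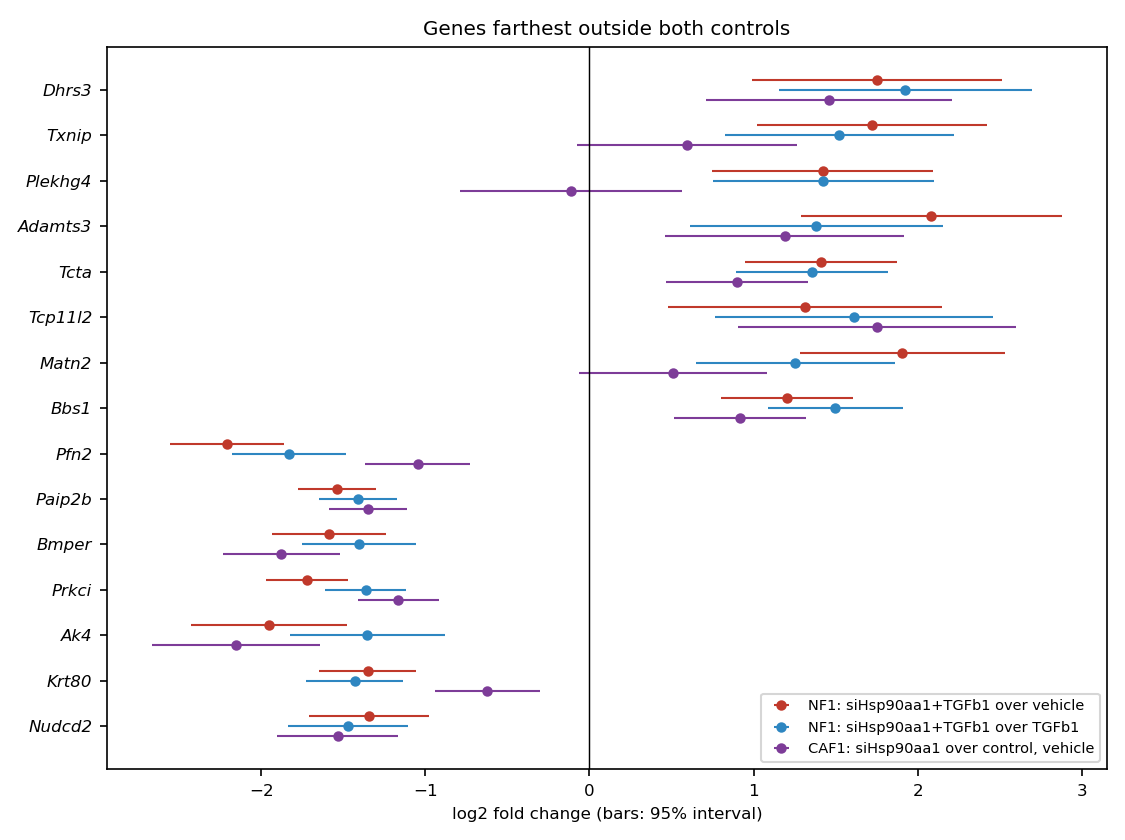
Log2 fold change with its 95% interval (x axis) of the genes farthest outside both controls, Hsp90aa1 left out, for siHsp90aa1 plus TGFb1 over vehicle (red) and over TGFb1 alone (blue) in NF1 and for siHsp90aa1 over control in CAF1 with vehicle (purple). All 7 lower genes are also lower in CAF1, while Plekhg4 sits at -0.11 there.

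Of the 22 lists, which differ in size, the replication list had the most members below both controls (11 of 26), beside 6.63% of all genes. The DNA replication and S-phase list holds the MCM helicase, origin licensing, polymerase and nucleotide synthesis genes, most of which E2F transcription factors switch on at entry to S phase. Promoter sequences were therefore set beside the values. In the RefSeq promoter table (GRCm38.p6), 20 of the 26 genes had an entry, and the 250 bases before the gene start were searched on both strands for an 8-letter E2F-type motif in the 4 spellings TTTCCCGC, TTTCGCGC, TTTGCCGC and TTTGGCGC. A match was found in 7 of the 20 (35%: Cdc6, Mcm5, Mcm6, Mcm7, Pola1, Rfc3 and Uhrf1), and in 611 of all 32851 windows (1.86%). The first share counts genes with a match in any of their windows and the second counts single windows. The second also takes in genes not tested here, so the 2 shares are not of like units. No other motif was searched, a match describes letters and not a bound site, and the 6 genes with no entry were not searched. Of the 9 searched members below both controls, Cdc6, Mcm7 and Rfc3 had a match (33.3%, close to the share of the whole list), and their windows are shown 5′ to 3′ on the strand of the gene with the match in capitals, for Cdc6 (chr11:98907901-98908150, plus strand), Mcm7 (chr5:138171884-138172133, minus strand) and Rfc3 (chr5:151651209-151651458, minus strand).
Cdc6: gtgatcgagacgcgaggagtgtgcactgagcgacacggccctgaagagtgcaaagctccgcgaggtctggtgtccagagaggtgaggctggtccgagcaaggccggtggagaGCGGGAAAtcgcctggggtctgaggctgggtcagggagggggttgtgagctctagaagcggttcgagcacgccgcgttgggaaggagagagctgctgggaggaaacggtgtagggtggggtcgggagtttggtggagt
Mcm7: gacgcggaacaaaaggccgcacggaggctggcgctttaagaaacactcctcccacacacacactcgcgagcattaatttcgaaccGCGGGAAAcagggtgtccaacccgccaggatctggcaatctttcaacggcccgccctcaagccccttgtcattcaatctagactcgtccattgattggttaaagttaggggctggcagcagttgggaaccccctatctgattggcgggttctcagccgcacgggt
Rfc3: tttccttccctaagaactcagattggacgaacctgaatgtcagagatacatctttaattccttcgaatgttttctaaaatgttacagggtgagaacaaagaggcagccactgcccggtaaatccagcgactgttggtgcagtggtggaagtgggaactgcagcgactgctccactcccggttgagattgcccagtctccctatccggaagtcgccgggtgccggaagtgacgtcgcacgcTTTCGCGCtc
The match began 138 bases before the gene start in Cdc6, 165 in Mcm7 and 10 in Rfc3, as the reverse complement of TTTCCCGC in Cdc6 and Mcm7 and as TTTCGCGC in Rfc3.

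Of the 26 replication genes, 23 were lower than vehicle and 0 higher, with a median of -0.74, where 15.0% of all genes were lower. TGFb1 alone gave 13 lower and 0 higher, with a median of -0.41. Against TGFb1 alone 11 were lower (13.5% of all genes) and 0 higher, so 11 lay below both controls, among them Mcm2, Mcm3, Mcm4, Mcm7, Pcna, Cdc6, Cdc45, Ccne1, Chaf1a and Rfc3. Mcm3 (ENSMUSG00000041859, GRCm38 chromosome 1, 20802968 to 20820312, minus strand), a subunit of the replicative helicase, had 74.8, 84.1 and 75.5 CPM with siHsp90aa1 plus TGFb1, 201, 179 and 173 CPM with TGFb1 alone and 266, 251 and 249.96 CPM with vehicle. The knockdown libraries lay far under every control library (-1.71 ± 0.18 against vehicle, adjusted p = 1.79e-06, and -1.24 ± 0.18 against TGFb1 alone, adjusted p = 7.69e-05). Pcna (ENSMUSG00000027342, GRCm38 chromosome 2, 132249162 to 132253314, minus strand), the sliding clamp of DNA polymerases, had 129.6, 134 and 121 CPM with siHsp90aa1 plus TGFb1, 251, 237 and 219 CPM with TGFb1 alone and 334, 316 and 305 CPM with vehicle. The 3 groups did not overlap (-1.31 ± 0.13 against vehicle, adjusted p = 1.26e-06).

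Ccne1, the cyclin of S-phase entry, had 17.5, 18.8 and 17.2 CPM with siHsp90aa1 plus TGFb1, 34.4, 31.3 and 29.9 CPM with TGFb1 alone and 43.1, 38.9 and 34.6 CPM with vehicle. It too lay below both controls in each library (-1.12 ± 0.14 against vehicle, adjusted p = 1.82e-05). Among the genes whose promoters are shown, Cdc6, the helicase loader, had 18.0, 19.1 and 13.5 CPM with siHsp90aa1 plus TGFb1, 33.1, 30.4 and 29.1 CPM with TGFb1 alone and 41.0, 38.8 and 36.8 CPM with vehicle. The knockdown libraries lay under all 6 control libraries (-1.20 ± 0.26 against vehicle, adjusted p = 0.00198). Mcm7, another helicase subunit, had 144, 146 and 127 CPM with siHsp90aa1 plus TGFb1, 183, 174 and 166 CPM with TGFb1 alone and 236, 226 and 233 CPM with vehicle. Rfc3, a subunit of the clamp loader, had 31.7, 33.4 and 29.2 CPM with siHsp90aa1 plus TGFb1, 43.8, 40.6 and 41.4 CPM with TGFb1 alone and 50.1, 51.9 and 51.3 CPM with vehicle. Both fell against vehicle in all 3 libraries, Mcm7 with a log2 fold change of -0.73 ± 0.10 (adjusted p = 4.79e-05) and Rfc3 with -0.70 ± 0.10 (adjusted p = 5.13e-05). Against siHsp90ab1 plus TGFb1, 3 of the 26 genes were lower (16.4% of all genes) and 0 higher, and with that knockdown 22 were lower than vehicle, with a median of -0.65. In CAF1 with siHsp90aa1, without TGFb1, 26 of 26 were lower than the CAF1 control (12.9% of all genes), with a median of -1.02.

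**Figure D5:**
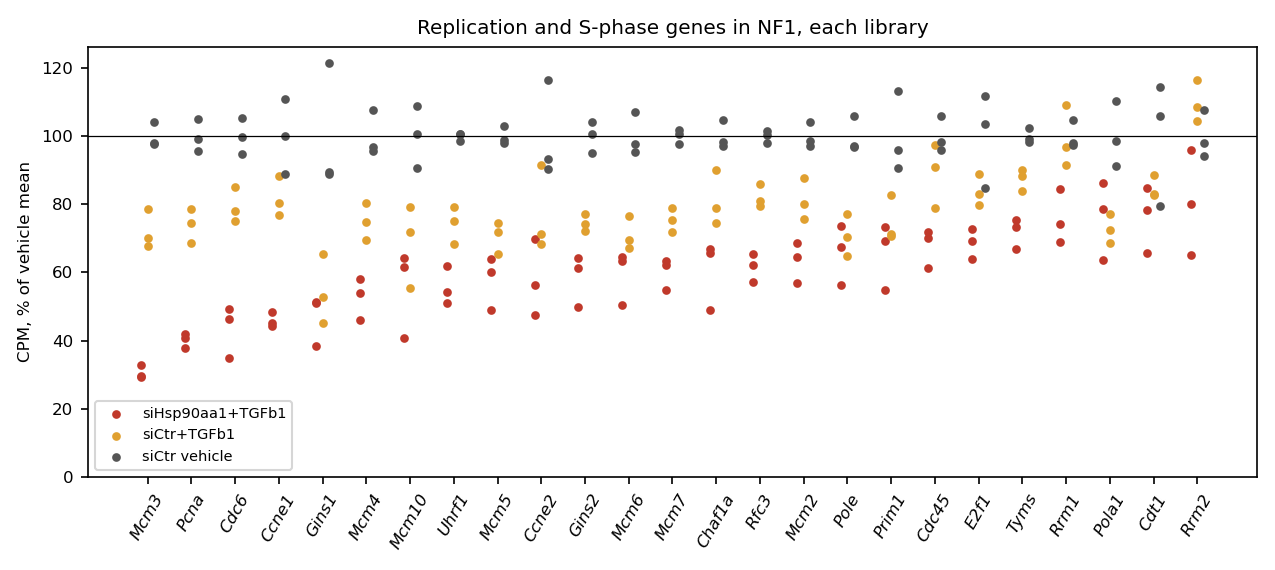
CPM of 25 of the 26 replication and S-phase genes in each NF1 library as a percentage of the vehicle mean of that gene (y axis), for siHsp90aa1 plus TGFb1 (red), TGFb1 alone (orange) and vehicle (grey). Red points lie lowest for most genes, with Mcm3 near 30%, and Rrm2 is the one gene whose TGFb1 points all lie above the vehicle mean.

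Of 22 mitosis genes 9 were lower and 0 higher than vehicle, where 15.0% of all genes were lower (18 lower under the replicate block), with a median of -0.39. Birc5, which encodes survivin, had 26.8, 29.7 and 27.9 CPM with siHsp90aa1 plus TGFb1, 68.4, 59.5 and 46.7 CPM with TGFb1 alone and 95.8, 68.3 and 60.1 CPM with vehicle. Every knockdown library was under every control library (-1.41 ± 0.19 against vehicle, adjusted p = 3.41e-05). Ccna2, cyclin A2, fell (-0.84 ± 0.14, adjusted p = 0.000192) and, with Bub1b of the spindle checkpoint, was also below both controls, as were 6.63% of all genes. In CAF1 20 of the 22 were lower with siHsp90aa1 (12.9% of all genes).

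Inhibitors of the cell cycle were among the genes that rose. Of 20 p53 targets and CDK inhibitors, 8 were higher and 1 lower than vehicle (3 lower under the replicate block and in DESeq2, 0 lower without any one of the 3 siHsp90aa1 libraries and 2 without vehicle replicate 2 or with only the 12 NF1 libraries), beside 15.1% and 15.0% of all genes, with a median of 0.37 against 0.00 with TGFb1 alone. The 5 genes Cdkn1a, Cdkn2b, Ccng1, Trp53inp1 and Bbc3 were above both controls, as were 4.64% of all genes. Cdkn1a, the CDK inhibitor p21, had 85.5, 50.5 and 49.5 CPM with siHsp90aa1 plus TGFb1, 40.8, 37.3 and 32.1 CPM with TGFb1 alone and 25.7, 21.6 and 16.7 CPM with vehicle. The groups did not overlap, and replicate 1 of the knockdown stood above the other 2 (1.53 ± 0.22 against vehicle, adjusted p = 6.88e-05, and 0.75 ± 0.22 against TGFb1 alone, adjusted p = 0.0159). Cdkn2b, the CDK4 and CDK6 inhibitor p15, had 54.0, 43.9 and 55.0 CPM with siHsp90aa1 plus TGFb1, 30.3, 28.3 and 32.6 CPM with TGFb1 alone and 29.2, 27.4 and 32.9 CPM with vehicle. TGFb1 alone did not part from vehicle here, and all knockdown libraries were higher (0.77 ± 0.12 against vehicle, adjusted p = 0.000116). Bbc3, the pro-apoptotic gene of PUMA, rose by 1.11 ± 0.23 against vehicle (adjusted p = 0.00125). Gadd45a, a stress-response gene, rose by 1.59 ± 0.22 against vehicle but was not above both controls, with a log2 difference of -0.50 from TGFb1 alone.

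Of 22 integrated stress response genes, 15 were higher and 0 lower than vehicle (15.1% and 15.0% of all genes), with a median of 0.57, while TGFb1 alone gave 17 higher and 0 lower and a median of 0.67. Against TGFb1 alone 1 was higher and 4 lower, beside 14.8% and 13.5% of all genes. Ddit4, an inhibitor of mTORC1 (1.23 ± 0.16), the glutathione-degrading enzyme gene Chac1 (1.22 ± 0.18) and Sesn2 (0.93 ± 0.15) were the 3 with the smallest p. Ddit3, which encodes CHOP, had 43.6, 30.6 and 39.9 CPM with siHsp90aa1 plus TGFb1, 21.4, 22.7 and 24.1 CPM with TGFb1 alone and 30.3, 18.5 and 16.8 CPM with vehicle. It was the 1 member above both controls, although vehicle replicate 1 nearly reached the lowest knockdown library (0.80 ± 0.23 against vehicle, adjusted p = 0.0141). Of 18 endoplasmic reticulum chaperone genes 7 were higher and 1, Pdia3, was lower than vehicle, beside 15.1% and 15.0% of all genes. TGFb1 alone gave 8 higher and 0 lower, and the medians were 0.16 with the knockdown and 0.28 with TGFb1 alone. Against TGFb1 alone 1 was higher and 2 lower, beside 14.8% and 13.5% of all genes. The oxidase gene Ero1l (0.73 ± 0.09) and the transcription factor gene Xbp1 (0.88 ± 0.14) were among those that rose against vehicle.

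Of 20 tested glycolysis and hypoxia genes 3 were higher and 7 lower than vehicle (15.1% and 15.0% of all genes), while TGFb1 alone gave 4 higher and 10 lower. The log2 fold change against vehicle was, for Pfkp, a phosphofructokinase, 0.64 ± 0.09, for Tpi1, triosephosphate isomerase, -0.61 ± 0.09 and for Egln3, a prolyl hydroxylase of HIF, -1.20 ± 0.21. Gapdh, often used to normalise assays, was below both controls, with 1559, 1599 and 1731 CPM with siHsp90aa1 plus TGFb1, 2047, 2025 and 1938 CPM with TGFb1 alone and 2119, 2137 and 1892 CPM with vehicle. The difference was -0.33 ± 0.08 against vehicle (adjusted p = 0.00322). Of 19 tested redox genes 2 were higher and 1 lower than vehicle with the knockdown, beside 15.1% and 15.0% of all genes. The counts were 4 and 2 under the replicate block, and 2 were lower with only the 12 NF1 libraries. Only 1 was higher without siHsp90aa1 replicate 1 or vehicle replicate 3, and 2 were lower without siHsp90aa1 replicate 1 or vehicle replicate 1. TGFb1 alone gave 2 higher and 10 lower. Against TGFb1 alone the knockdown was higher for 8 and lower for 1, beside 14.8% and 13.5% of all genes. Gsr, glutathione reductase, had 93.6, 84.1 and 69.3 CPM with siHsp90aa1 plus TGFb1, 136, 118 and 102 CPM with TGFb1 alone and 154, 160.0 and 134 CPM with vehicle. Cat, catalase, had 144, 129 and 109 CPM with siHsp90aa1 plus TGFb1, 90.7, 86.2 and 76.3 CPM with TGFb1 alone and 83.4, 79.8 and 67.9 CPM with vehicle. The knockdown lay below both controls for Gsr (-0.86 ± 0.12 against vehicle) and above both for Cat (0.72 ± 0.12). Of 21 cholesterol synthesis genes 1 was higher and 2 lower than vehicle, beside 15.1% and 15.0% of all genes. The block gave 3 higher, and the fits that left out 1 library gave 0 to 3 higher and 1 to 2 lower. Idi1, the isomerase of isopentenyl diphosphate, was below both controls (-0.66 ± 0.17 against vehicle, adjusted p = 0.00679). Insig1, a brake on sterol synthesis, rose, but its call was lost without siHsp90aa1 replicate 1 or 3 or vehicle replicate 1 or 2 (adjusted p from 0.0656 to 0.123). The calls of Sc5d, a sterol desaturase gene, and Slc7a11, the cystine transporter gene of the redox list, were lost without siHsp90aa1 replicate 1 (adjusted p = 0.0760 and 0.0741) or vehicle replicate 3 (adjusted p = 0.0586 and 0.0913).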

How the data were processed

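Libraries of NF1 and CAF1 fibroblasts fell by their titles into 7 groups of 3. The authors deposited expected counts (estimated counts per gene) from Salmon and STAR on GRCm38, per the submitters' processing notes. Tool versions, settings, strand use and the annotation were not given in the sources used. The kit that made the libraries keeps strand, per the labels. The deposited counts are not normalised, and since 10.9% of values were not whole they were rounded here, which shifted none by more than 0.5. Deposited TPM values, which the authors scaled by transcript length, served only to compare levels between HSP90 genes. Coordinates were read from GENCODE vM21, which has the same build and matched 98.8% of gene identifiers.

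The test was edgeR's quasi-likelihood F test (edgeR 4.0.16 under R 4.3.3). Library sizes were scaled by TMM, and filterByExpr with its minimum count of 10 and minimum total of 15 kept 15230 of 45706 genes. All 21 libraries were fitted together with 1 coefficient for each group. Benjamini-Hochberg adjustment ran over all genes tested. The SE is the log2 fold change over the square root of F, and CPM are TMM-normalised. The script was checked on simulated data. Pooled over genes, replicates differed by far more than counting noise, a measure that genes with many counts dominate. Depth may still limit the precision of genes with few counts.

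Equal replicate numbers pair libraries across groups, because the labels name the number as a batch. Over 10374 genes, deviations from the group means of same-numbered NF1 libraries correlated above 0.1 in 7 of 9 pairs (0.0685 to 0.719, mean 0.381), and other pairs averaged -0.186. The number was left out of the main fit. Results of a fit that blocks on it stand beside a value only where a call changed or a count moved by over 1.5-fold.

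Named genes were the 4 HSP90 genes, the 8 largest rises and falls against vehicle, the 8 genes each way farthest from both controls, 4 genes each way that kept a 4-fold TGFb1 response, 4 each way within 2-fold of vehicle by their 95% interval, and the 3 of each list with the smallest p. To be named, largest changes and genes farthest from both controls needed a mean of at least 5 CPM and no overlap between libraries. Comparisons, the 22 gene lists and the 7 marker lists were chosen with earlier results of these data known. Alternatives were RLE factors, DESeq2 1.42.0, no filter, fits of the 12 NF1 or of the 6 libraries, the replicate block, a joint p-value for both controls, other fold thresholds, and leaving out each library. Single-gene results of a few genes are not reported here, and the list counts include them.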

Additional observations from a re-analysis of the deposited data

Results flagged for a closer look

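The effect of siHsp90aa1 was tested for a difference between CAF1, where it was measured with vehicle, and NF1, where it was measured with TGFb1 against TGFb1 alone. Line and TGFb1 cannot be told apart in this difference. Of 107 named genes 28 differed at an adjusted p under 0.05 in edgeR's quasi-likelihood test, 17 with a higher effect in CAF1 and 11 with a lower one. Over all genes tested 832 did (5.46%), a share that cannot be set against the named genes, since these were chosen for their NF1 values. The values that follow are log2 differences of CAF1 minus NF1.

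The 3 named contractile genes gave 1.04 for Acta2, 1.15 for Cnn1 and 1.30 for Tagln. Acta2 stood at 0.57 in CAF1 and -0.47 in NF1, where only the first passed. The difference was 1.09 for Lox, 0.775 for Col5a2, 0.69 for Col12a1, 0.50 for Ltbp2 and 0.71 for Ski, while the named matrix and pathway genes Col1a1 (0.76, adjusted p = 0.0514), Bmp1 (0.63, adjusted p = 0.126), P4ha3 (0.29, adjusted p = 0.575) and Pdgfb (1.46, adjusted p = 0.422) did not pass. Of the genes chosen as lowered by TGFb1 and within 2-fold of vehicle after the knockdown in NF1, the values were -3.64 for Ggt5, -2.55 for Ptpn5, -2.41 for Ly6a and -2.22 for Ly6c1, from effects of 0.48 to 0.93 in CAF1 and 3.00 to 4.39 in NF1. That choice required a large NF1 effect, so the sign of these 4 differences was largely set by it and is given as a description only. The chemokine genes gave -3.08 for Ccl11 and -1.73 for Cxcl1, Gda gave -2.22 and Cebpd gave -1.37, from effects that were negative in CAF1 and positive in NF1 for all 4.

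Of the genes outside both controls, Pfn2 (0.78) and Krt80 (0.81) fell less in CAF1, and both were chosen for their large fall in NF1. The remaining differences were 1.36 for Fbxo32, 1.29 for Tubb3, 1.20 for Gadd45a, 1.08 for Jup, 1.02 for Chac1, 0.67 for Ero1l, 0.46 for Pfkp, -0.46 for Tpi1, -0.53 for Erap1 and -0.68 for Bub1. The part of single outlying libraries in these differences was not checked.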

How the results depend on the processing

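Over RLE factors, DESeq2, no filter and the NF1 libraries alone, the counts against vehicle, of the TGFb1 response left, outside both controls and against siHsp90ab1 stayed within 1.5 times those reported. With the replicate block the genes above both controls numbered 1139, and no other of these counts moved by over 1.5 times. With only the 6 libraries 1529 genes were higher than vehicle. Adjusting the larger of both p-values gave 363 genes above and 668 below both controls, and a further 1.5-fold limit gave 192 and 269. With a TGFb1 response over 1.5-fold, 785 raised and 400 lowered genes were still called, and 393 and 583 lay within 2-fold of vehicle.

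Leaving out 1 library gave 1687 to 2126 genes higher and 1762 to 2389 lower than vehicle. It gave 387 to 487 raised genes still called (53.3% to 70.0%) and 178 to 258 lowered genes (25.9% to 39.9%), with 46 to 97 and 157 to 197 within 2-fold of vehicle. Outside both controls it gave 389 to 659 genes above and 659 to 1017 below, of which 65.6% to 77.3% and 71.97% to 84.2% moved the same way in CAF1. Against siHsp90ab1 it gave 1926 to 2398 higher and 1887 to 2302 lower. The causes were not tested.

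Of the genes with no call against vehicle, 4 changed sign when 1 library was left out. Ggt5 ranged from -0.13 to 0.395 over these fits and was negative without siHsp90aa1 replicate 1 (-0.02), vehicle replicate 1 (-0.13) and vehicle replicate 2 (-0.06). Ly6a ranged from -0.27 to 0.16, Tmem151b from -0.23 to 0.28 and Hsp90b1 from -0.34 to 0.0268 without vehicle replicate 1. Calls lost among named genes stand beside them.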

Other observations

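Growth factor genes and receptor tyrosine kinases were measured beside the lists of the report. Of 22 tested growth factor genes, 11 were higher and 3 lower than vehicle with siHsp90aa1 plus TGFb1, beside 15.1% and 15.0% of all genes (7 higher without siHsp90aa1 replicate 3 or vehicle replicate 3), with a median of 0.73 against 1.13 with TGFb1 alone. Pdgfc, a ligand of the PDGF receptors, had 61.4, 67.4 and 76.9 CPM with siHsp90aa1 plus TGFb1, 72.5, 72.9 and 92.0 CPM with TGFb1 alone and 19.3, 15.8 and 17.2 CPM with vehicle. Its libraries overlapped between both groups with TGFb1 and lay above vehicle (1.97 ± 0.17, adjusted p = 1.62e-07 in edgeR). Pdgfa, another ligand, had 19.5, 20.5 and 35.3 CPM with siHsp90aa1 plus TGFb1, 93.2, 80.3 and 90.4 CPM with TGFb1 alone and 18.0, 18.2 and 11.8 CPM with vehicle. The fibroblast growth factor gene Fgf2 had 14.4, 13.999 and 16.5 CPM with siHsp90aa1 plus TGFb1, 95.7, 68.1 and 60.1 CPM with TGFb1 alone and 3.13, 1.84 and 0.82 CPM with vehicle. Both were named after their values had been seen, and for both the knockdown lay above vehicle (0.64 ± 0.20, adjusted p = 0.0202, and 2.93 ± 0.57, adjusted p = 0.000827) and under TGFb1 alone (-1.82 ± 0.20, adjusted p = 9.77e-06, and -2.32 ± 0.51, adjusted p = 0.00263). Wnt11, a Wnt ligand, had 2.21, 2.69 and 4.27 CPM with siHsp90aa1 plus TGFb1, 9.28, 9.07 and 11.2 CPM with TGFb1 alone and 0.0827, 0.225 and 0.0953 CPM with vehicle. The knockdown lay above every vehicle library (4.53 ± 0.49, adjusted p = 2.89e-06). Fgf21, a metabolic hormone gene, had 0.724, 0.649 and 1.69 CPM with siHsp90aa1 plus TGFb1, 1.75, 1.56 and 1.81 CPM with TGFb1 alone and 0.0827, 0.0898 and 0 CPM with vehicle. Ereg, the EGF receptor ligand epiregulin, was the 1 growth factor gene below both controls (-1.28 ± 0.33 against vehicle, adjusted p = 0.00631, and -1.28 ± 0.33 against TGFb1 alone, adjusted p = 0.0071).

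Of 23 tested receptor tyrosine kinase genes, 4 were higher and 2 lower than vehicle, where 15.1% and 15.0% of all genes were, so the counts show nothing about the family (4 lower under the replicate block and in DESeq2), and 0 lay outside both controls. Met, the receptor of hepatocyte growth factor, had 23.2, 25.9 and 25.6 CPM with siHsp90aa1 plus TGFb1, 53.7, 48.8 and 41.5 CPM with TGFb1 alone and 125, 124 and 129 CPM with vehicle. The 3 groups did not overlap, and the knockdown libraries were the lowest, with a call against vehicle but not against TGFb1 alone (-2.34 ± 0.39 against vehicle, adjusted p = 0.000245, and -0.95 ± 0.38 against TGFb1 alone, adjusted p = 0.0712). Ret, the receptor of the GDNF family, had 17.6, 15.8 and 16.8 CPM with siHsp90aa1 plus TGFb1, 20.8, 19.8 and 18.2 CPM with TGFb1 alone and 3.38, 3.93 and 2.29 CPM with vehicle. It rose against vehicle (2.39 ± 0.20, adjusted p = 1.59e-07) and differed from TGFb1 alone by -0.23 ± 0.18 (adjusted p = 0.383), and the ephrin receptor gene Ephb2 rose by 0.98 ± 0.18.

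A few genes crossed the vehicle level. Of the genes that TGFb1 alone raised over 2-fold, Efna2 (-0.31, adjusted p = 0.0346) and Grhl2 (-1.07, adjusted p = 0.0212) were lower than vehicle with the knockdown. Of those that it lowered, Tmem86a (0.82), H2-T24 (0.92), H2-T23 (0.66), Cdsn (0.85), Hoxb5os (1.26) and Lrrc48 (1.07) were higher than vehicle, at adjusted p from 0.00111 to 0.0407. Tmem86a, which encodes a lysoplasmalogenase, averaged 33.1 CPM with siHsp90aa1 plus TGFb1, 5.33 CPM with TGFb1 alone and 18.7 CPM with vehicle.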
